A study of Mus musculus with 14 samples.

Results

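The skin connexins described here are 6 genes, Gjb2, Gjb6, Gjb5, Gja1, Gja4 and Gjc1, chosen by name as connexins found in epidermis or in the vessels of the dermis. They are 6 of 20 connexin genes in a table of 35327 gene symbols from mouse neck skin. All 6 passed the filter on low counts, as did 20939 symbols in all. The groups compared came from C57BL/6J mice labelled female, and the design text gives 1 mouse per sample. Untreated wild-type mice of 6 weeks gave 2 libraries, whose names differ only by a suffix; whether they come from separate mice and whether vehicle was applied is not given in the sample labels, and every comparison with untreated skin rests on these 2. The other 4 groups, with 3 libraries each, received the vitamin D analogue calcipotriol (MC903), which brings on a dermatitis of the skin it is applied to, 1 nmol in 100 µL a day for 6 days. Of these, the isotype and MAR1 groups were wild-type mice of 6 weeks injected with 20 µg of a control antibody or of MAR1, which binds the high-affinity IgE receptor FcεRIα on basophils and mast cells and serves to deplete basophils, with 3 injections before MC903 and more during it. The fl/fl group had Il4ra fl/fl mice and the cKO group Pdgfra-Cre Il4ra fl/fl mice, both of 6 to 7 weeks and without injections. The Cre driver is active in Pdgfra-expressing cells, which include fibroblasts, so Il4ra in other skin cells is not its target.

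Connexins are membrane proteins that assemble into hexameric channels, and channels of neighbouring cells dock to form gap junctions through which ions and small metabolites pass. Keratinocytes express several of them in layers. Gja1 is widespread in epidermis and dermis, Gjb5 belongs to differentiating epidermis, and Gjb2 and Gjb6 are known for being low in resting skin between the hair follicles and high in wounded, psoriatic or hyperproliferative epidermis. Gja4 is expressed in arterial endothelium and Gjc1 in vascular smooth muscle and pericytes. In bulk skin, fewer cells of a type and less RNA per cell cannot be told apart.

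The libraries differed in depth and content. Totals, in M counts (mega), were 34.3 to 55.3 in the untreated, isotype and fl/fl libraries, 16.5 to 30.8 in cKO and 5.73 to 10.6 in MAR1. Olfactory and vomeronasal receptor genes, which serve as a measure of reads outside expressed genes, took 3.88% to 9.38% of counts in the MAR1 libraries and 0.467% to 2.58% in cKO, against 0.269% to 0.439% with isotype at most 0.0769% in fl/fl and 0.0486% and 0.277% in untreated skin. Salivary gland genes summed to between 7.51 and 14711 CPM over the fl/fl libraries, being high in fl/fl libraries 1 and 2. Against the female label, cKO library 1 held Y-linked transcripts (69.9 CPM of Ddx3y and 53.5 CPM of Eif2s3y), of which cKO libraries 2 and 3 had 0. Keratinocyte markers were present throughout: no gene of the basal keratinocyte list (Krt5, Krt14, Krt15, Col17a1, Itga6, Itgb4, Trp63 and Dst) was at 0 in any library.

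The epidermal pair Gjb2 and Gjb6 lay next to each other in the gene order of RefSeq's GRCm38.p6 annotation, with the lens connexin gene Gja3 on the other side of Gjb2. The 250 bases before the annotated start are shown for Gjb2 and Gjb6, which moved together in the values below, for Gjb5, whose level went the other way, and for Gja1. They are from RefSeq (GRCm38.p6), at chr14:57104703-57104952 (minus strand) for Gjb2, chr14:57133612-57133861 (minus strand) for Gjb6, chr4:127358165-127358414 (minus strand) for Gjb5 and chr10:56377050-56377299 (plus strand) for Gja1, written 5′ to 3′ along the gene with motif matches in capitals.
Gjb2: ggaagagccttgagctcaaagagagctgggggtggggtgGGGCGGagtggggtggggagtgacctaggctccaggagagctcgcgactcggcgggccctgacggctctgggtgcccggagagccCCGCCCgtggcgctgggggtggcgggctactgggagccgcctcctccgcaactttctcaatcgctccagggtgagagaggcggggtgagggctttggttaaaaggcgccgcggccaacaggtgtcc
Gjb6: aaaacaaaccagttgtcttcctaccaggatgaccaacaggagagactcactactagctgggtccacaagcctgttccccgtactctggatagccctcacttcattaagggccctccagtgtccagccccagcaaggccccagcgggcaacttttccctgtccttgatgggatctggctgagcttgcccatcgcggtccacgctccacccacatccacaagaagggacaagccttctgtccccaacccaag
Gjb5: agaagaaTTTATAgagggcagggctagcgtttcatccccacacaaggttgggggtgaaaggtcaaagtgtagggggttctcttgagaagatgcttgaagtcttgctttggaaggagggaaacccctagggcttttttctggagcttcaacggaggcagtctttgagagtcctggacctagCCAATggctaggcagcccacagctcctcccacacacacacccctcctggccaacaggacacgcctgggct
Gja1: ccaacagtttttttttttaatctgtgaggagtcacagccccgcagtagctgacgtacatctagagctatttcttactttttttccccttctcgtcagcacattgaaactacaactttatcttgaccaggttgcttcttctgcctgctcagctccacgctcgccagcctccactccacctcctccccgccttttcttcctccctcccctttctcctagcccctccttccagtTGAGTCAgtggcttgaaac

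A search covered 7 motifs on both strands in the promoters of 5 of the 6 genes, which leaves out Gjc1. The Gjb2 window held 2 GC boxes (GGGCGG), at positions -211 to -206 and -126 to -121 from the start, and Gja4 held 1, at -79 to -74. Of 32851 RefSeq windows of the same length, 32.7% hold a GC box. The Gja1 window held the only AP-1 match (TGANTCA) of the 5, at -19 to -13, against 6.75% of all windows. Gjb5 held a CCAAT match at -70 to -66 (33.8% of all windows) and a TATAAA match at -243 to -238 (12.4%), which is far upstream of where a TATA box acts. The Gjb6 window held none of the motifs searched. The letters of a STAT3-type site (TTCNNNGAA, 7.02% of all windows), a STAT6-type site (TTCNNNNGAA, 5.85%) and the DR3 vitamin D response element (0.0396%) were in none of the 5 windows. GC content was 69.2% in Gjb2 and 56.8% in Gjb6, against a median of 52.4% over all windows. The neighbours Gjb2 and Gjb6 had no motif of this search in common.

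After MC903, Gjb2 and Gjb6 rose together, far above their levels in untreated skin. Gjb2, whose channels are associated in humans with deafness and keratoderma when mutated, stood at 11.7 and 4.58 CPM in the untreated libraries and at 629, 593 and 499 CPM with isotype. CPM are counts relative to a TMM-scaled library size (per M counts). Every isotype library lay above both untreated ones. The rise was 70.4-fold (log2 fold change 6.14 ± 1.00 SE, adjusted p = 0.0081, edgeR quasi-likelihood test with Benjamini-Hochberg adjustment). Gjb6, whose mutation causes a human disorder of hair, nails and palms, stood at 2.48 and 2.02 CPM in untreated skin and at 297, 284 and 186 CPM with isotype. It rose 113-fold (log2 6.82 ± 0.97, adjusted p = 0.0047).

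These were the 2 of 6 connexins that passed in isotype against untreated skin, where 3.08% of the 20939 genes were called. Groups did not overlap for 4 of the 6 (3 higher, 1 lower), against 48.8% of all genes. Gjb5, a connexin of stratified epithelium, stood at 123 and 57.5 CPM untreated and at 18.6, 30.3 and 32.7 CPM with isotype. All isotype values lay below both untreated ones, yet the difference missed the threshold (log2 -1.73 ± 0.64, adjusted p = 0.17). Gja1, the most widespread connexin, stood at 142 and 138 CPM untreated and at 254, 298 and 367 CPM with isotype, which also did not overlap (1.13 ± 0.48, adjusted p = 0.23). Gja4 and Gjc1 overlapped between the groups. Their log2 fold changes were 0.30 (adjusted p = 0.79) and 0.22 (adjusted p = 0.85). With only these groups in the fit Gja1 and Gjb5 passed too (adjusted p = 0.017 and 0.024), and with the untreated libraries summed neither Gjb2 (adjusted p = 0.092) nor Gjb6 (0.065) did. The fit with only these groups called 20.3% of all genes. Because the isotype mice had also been injected, MC903 and injection cannot be told apart.

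The fl/fl mice, without injections, gave the second view of MC903 against the same untreated libraries, so the comparisons share samples. They also differed from the untreated mice in genotype and in age (6 to 7 against 6 weeks). MC903, genotype and age cannot be told apart here. Gjb2 stood at 111, 392 and 1415 CPM and Gjb6 at 50.9, 115 and 514 CPM in fl/fl libraries 1, 2 and 3. The same library was lowest, and the same highest, for both genes. Both lay above untreated skin in every library, by 78.4-fold for Gjb2 (log2 6.29, adjusted p = 0.0099) and 101-fold for Gjb6 (6.65 ± 0.96, adjusted p = 0.0051). They were again 2 of 6 called, against 1.72% of all genes, and 4 of 6 did not overlap (2 higher, 2 lower), against 28%. Gjb5 stood at 10.1, 39.6 and 32.4 CPM, all below untreated skin (-1.72 ± 0.64, adjusted p = 0.17), and Gjc1 at 3.08, 7.19 and 5.32 CPM was also lower throughout (-0.58, adjusted p = 0.56). Gja1 stood at 44.0, 183 and 167 CPM and overlapped (-0.09, adjusted p = 1). The Gjb2 and Gjb6 calls were lost without untreated library 2 (adjusted p = 0.099 and 0.076) and with only these groups in the fit (0.33 and 0.29). Without fl/fl libraries 1 and 2, which held salivary gland transcripts, the group is left with its highest library for both genes alone, so that estimate bears on neither call.

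**Figure D1:**
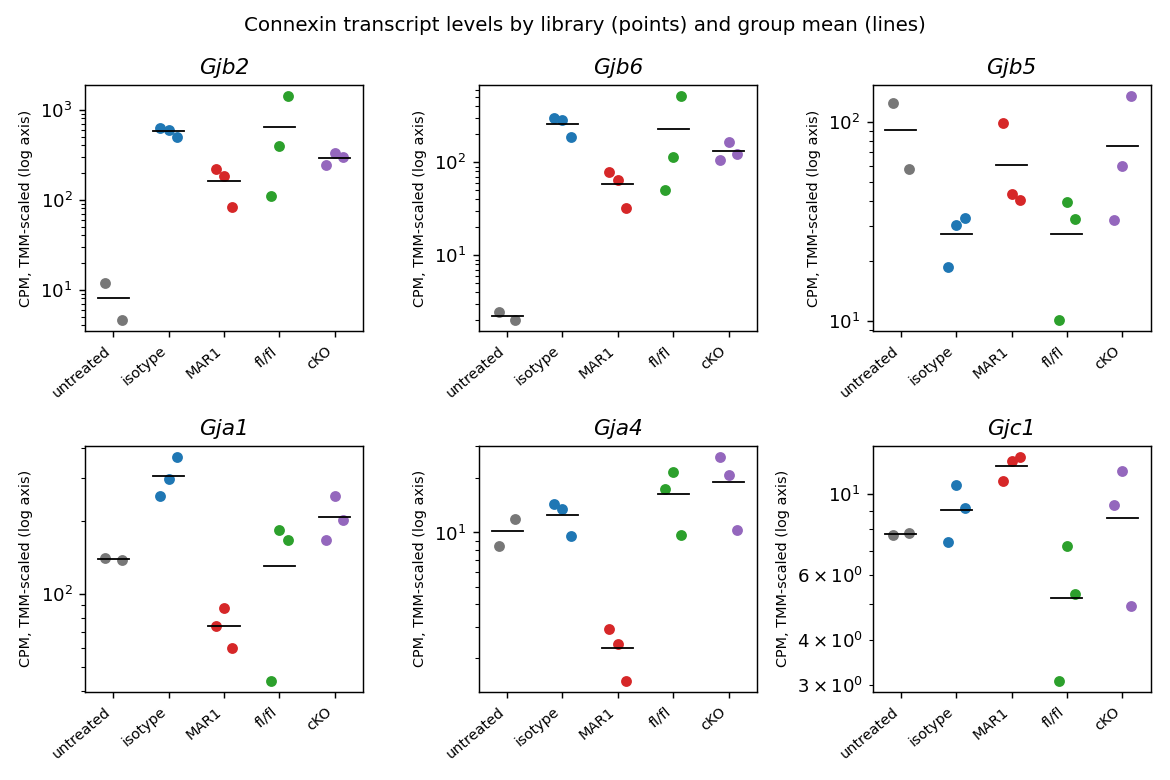
TMM-scaled CPM (log axis) of the 6 connexins in each of the 14 libraries, with points for libraries and lines for group means. Gjb2 and Gjb6 are lowest in the untreated libraries, at 11.7 and 2.48 CPM or less, and Gja4 is lowest in the MAR1 libraries, at 2.92 CPM or less.

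The levels of Gjb2 and Gjb6 varied together. Their count ratio ran from 1.98 to 4.71 over the 14 libraries, with 4.71 and 2.27 in untreated skin, while Gjb6 itself ranged from 2.02 to 514 CPM. Among 10912 genes that averaged 10 CPM or more, each was the other's nearest gene by the root mean square difference of centred log2 profiles (0.31, against a median of 2.27 over genes for Gjb2). Next for Gjb2 came the kallikrein protease gene Klk6 (0.46) and the tubulin gene Tubb3 (0.56), and next for Gjb6 Tubb3 (0.41) and the cornified envelope gene Rptn (0.58). These 14 libraries share 5 groups and their depth differences, so the likeness describes this set.

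The connexin pool shifted with them. Levels of different genes were compared as CPM per kilobase of the longest protein-coding transcript in GENCODE M21. On that scale, over all 20 connexin genes, Gjb2 and Gjb6 together held 2.40% and 1.83% of the pool in untreated skin. They held 63.4%, 57.1% and 47.7% with isotype and 27.4% to 74.0% over all MC903 libraries, without overlap. Gjb5 held 28.4% and 21.4% of the pool in untreated skin and 1.70% to 3.06% with isotype. Gja1 held 17.7% and 27.8% untreated and 12.6% to 18.6% with isotype, while its level per kilobase was 43.9 ± 0.82 (SD, n = 2) against 96.3 ± 18.0 (n = 3). The summed connexin level was 252 and 156 CPM per kilobase untreated and 621 to 668 with isotype.

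**Figure D2:**
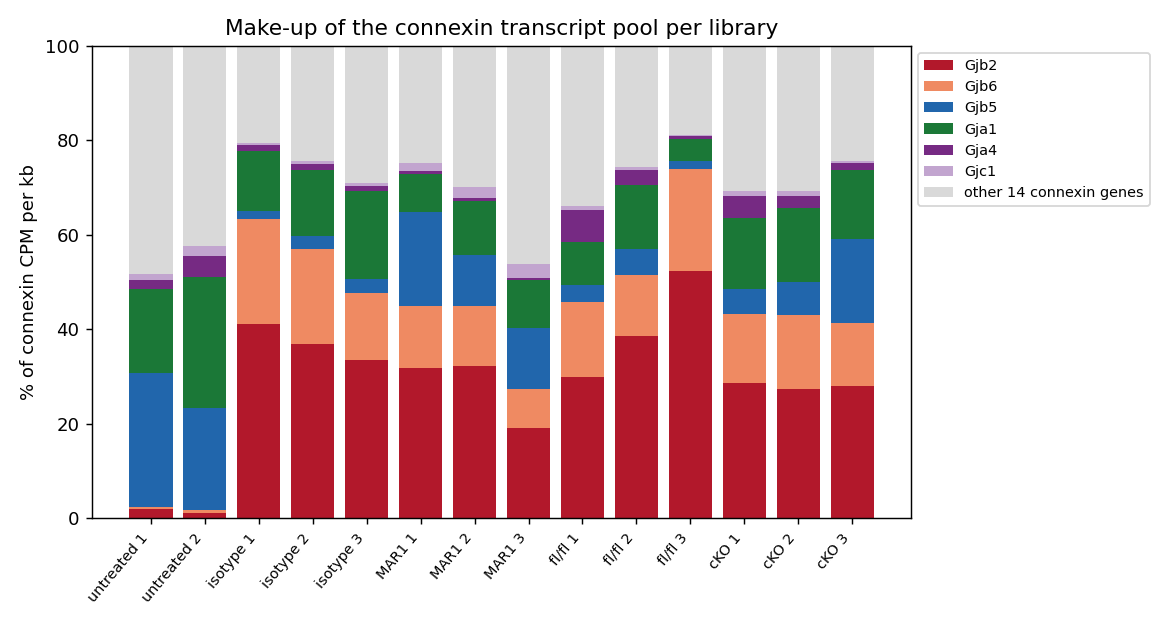
Share of each connexin gene in the summed connexin CPM per kilobase (percent, bars add to 100) for each library. Gjb2 and Gjb6 together fill 2.40% or less of the bar in untreated skin and 27.4% or more after MC903.

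Keratinocyte content was measured beside these values. Basal keratinocyte markers summed to 4476 and 11900 CPM in untreated skin and to 16966 to 22886 CPM with isotype. The keratin gene Krt14 set that sum: it rose (log2 3.54, adjusted p = 0.037 in edgeR) from 16.5% and 19.1% of it to 79.9% to 82.7%, while Krt15 fell (-3.07, adjusted p = 0.0062) and the other 6 markers lay between -0.90 and 0.56. Without Krt14, a choice made after seeing its values, the list summed to 9933 and 3624 CPM untreated and to 3055 to 4091 CPM with isotype. Per 1000 CPM of these markers, Gjb2 stood at 0.983 and 1.02 untreated, at 24.5 to 37.1 with isotype and at 25.0 to 44.2 in fl/fl. Gjb6 stood at 0.208 and 0.451 untreated and at 9.14 to 17.5 with isotype. Per 1000 CPM of the list without Krt14, Gjb2 stood at 1.18 and 1.26 untreated and at 122 to 206 with isotype, and Gjb6 at 0.250 and 0.557 against 45.5 to 97.2. Both genes were thus apart from untreated skin on either scale. Gjb5 went from 10.4 and 12.8 per 1000 of the full list to 1.10, 1.32 and 1.61 with isotype, a denominator that holds the Krt14 rise. Without Krt14 it went from 12.4 and 15.9 to 6.10, 7.67 and 7.99, a smaller difference that also did not overlap. Markers of stressed keratinocytes rose with Gjb2 and Gjb6: 4 of 8 passed in isotype and 6 of 8 in fl/fl against untreated skin, and their sum went from 678 and 1728 CPM to 18542 to 23980 CPM with isotype.

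In the MAR1 libraries 4 connexins of epidermis and vessels were lower than with isotype antibody. Gja4, a connexin of arterial endothelium, stood at 14.3, 13.5 and 9.56 CPM with isotype and at 2.92, 2.42 and 1.5 CPM with MAR1, its lowest values in the series. It fell 5.40-fold (log2 -2.43 ± 0.46, adjusted p = 0.0011). These MAR1 values rest on 10 to 34 counts per library. Gja1 stood at 254, 298 and 367 CPM against 73.9, 87.5 and 59.8 CPM and fell 4.15-fold (-2.05 ± 0.43, adjusted p = 0.0019). All MAR1 values of Gja1 were also below both untreated ones.

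Gjb6 stood at 79.3, 64.1 and 32.3 CPM with MAR1 and fell 4.36-fold (-2.12 ± 0.65, adjusted p = 0.016). Gjb2 stood at 219, 183 and 83.9 CPM and fell 3.54-fold (-1.83 ± 0.69, adjusted p = 0.041). Both genes remained above every untreated library, a contrast that was described by its values and not tested. Gjb5 stood at 98.1, 43.2 and 40.3 CPM, above every isotype library (1.16 ± 0.59, adjusted p = 0.11), and Gjc1 at 10.8, 12.3 and 12.6 CPM against 7.39, 10.6 and 9.15 (0.40 ± 0.43, adjusted p = 0.44). Neither passed. The 4 of 6 called compare with 49% of all genes in the same contrast, and the 6 of 6 whose groups did not overlap with 68.6%.

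The Gjb2 decrease was the least firm of the 4. It missed the threshold without any 1 of the 6 libraries (adjusted p = 0.052 to 0.14), with RLE scaling (-1.29, adjusted p = 0.12) and with DESeq2 (0.088), and Gjb6 missed it without MAR1 library 2 (0.057) and without MAR1 library 3 (0.068). Gjb5 in turn passed as higher with RLE scaling (1.69, adjusted p = 0.033), DESeq2 (1.69, 0.013) and only these groups in the fit (1.27, 0.013), and Gjc1 with DESeq2 (1.00, 0.02). RLE scaling, DESeq2 and the fit of only these groups called 47.7%, 56.9% and 67.6% of all genes. Receptor gene share separates the MAR1 libraries from isotype; with that share as a covariate none of the 6 passed in edgeR, nor did any of the 20939 genes (0 called), and Gja4 stood at -2.12 (adjusted p = 0.66), Gja1 at -1.33 (0.76), Gjb6 at -0.81 (0.92) and Gjb2 at 0.02 (1). MAR1 treatment and library content cannot be told apart.

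Cell type markers moved in the same contrast, in which 49% of the 20939 genes were called (5547 lower and 4723 higher). Of the 8 basal keratinocyte markers 6 fell (all but Krt15 and Dst), and their sum was 2362 to 4793 CPM with MAR1. Per 1000 CPM of these markers, Gjb2 stood at 35.5 to 50.5 with MAR1 and 24.5 to 37.1 with isotype, which overlap, and Gja1 at 15.4 to 25.3 and 13.0 to 18.0. Neither was lower with MAR1 on that scale, nor was Gjb6, at 13.7 to 17.7 against 9.14 to 17.5. Per 1000 CPM of stressed keratinocyte markers, of which 5 of 8 fell, Gjb2 stood at 44.6 to 54.5 with MAR1 and 20.8 to 33.9 with isotype. Gjb6 stood at 17.2 to 19.4 and 7.76 to 16.0. Every MAR1 library was thus higher for both genes on the stressed keratinocyte scale, which was not tested. Per 1000 CPM of dermal fibroblast markers, however, Gja1 stood at 35.3, 54.3 and 35.5 with MAR1 and at 55.3, 75.7 and 95.2 with isotype, so every MAR1 library was lower there. Of those 12 fibroblast markers 6 fell and 3 rose with MAR1. Gjb5 per 1000 CPM of basal keratinocyte markers stood at 11.9 to 20.5 with MAR1, against 1.10 to 1.61 with isotype. Of 10 endothelial markers 5 fell (Cdh5, Kdr, Tie1, Egfl7 and Eng), while Pecam1 rose to 1086 CPM (MAR1 mean) from 170 CPM (isotype mean) and alone set the sum of the list. Per 1000 CPM of the list without Pecam1, a choice made after seeing its values, Gja4 stood at 7.72 to 14.3 with MAR1 and 32.5 to 45.8 with isotype. Every MAR1 library lay below every isotype library on that scale, which was not tested. Hair follicle markers summed to 217 to 271 CPM with MAR1, against 1929 to 2307 with isotype, and 3 of 10 fell. The part of cell content in these decreases was not tested.

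**Figure D3:**
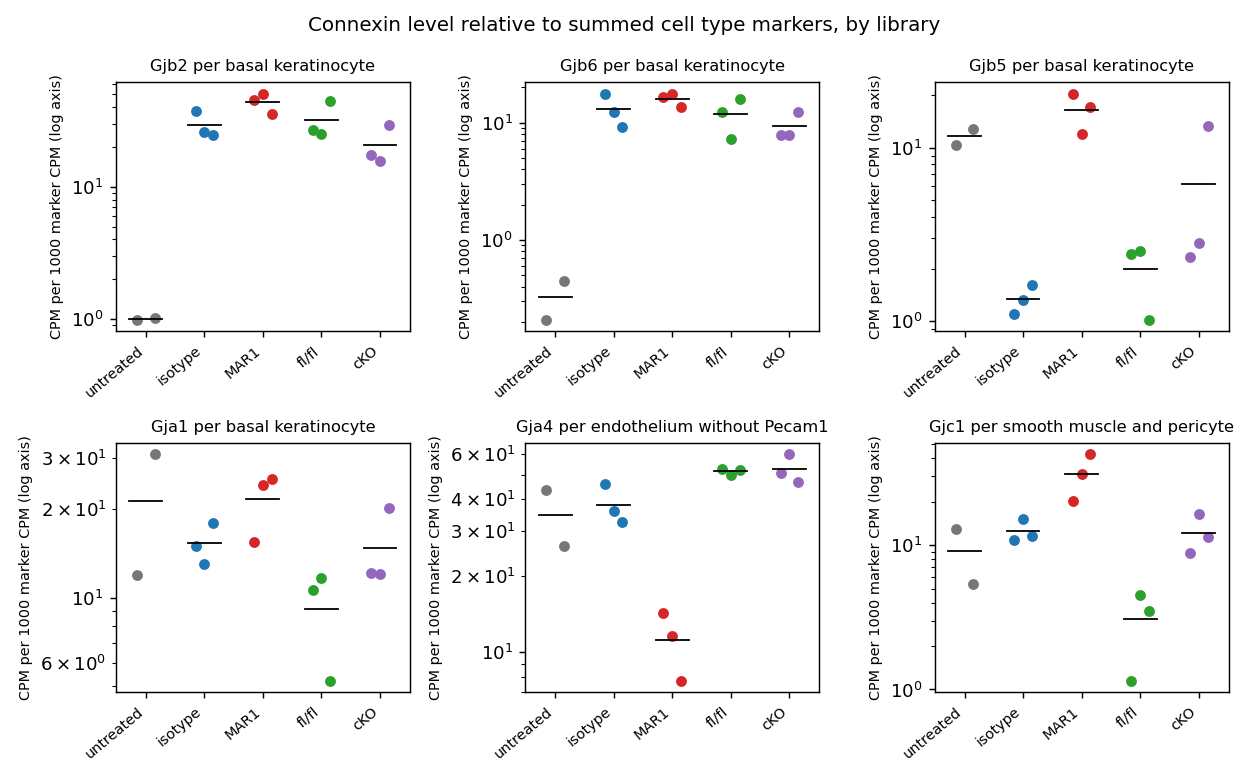
Each connexin per 1000 CPM of summed markers of a skin cell type (log axis), by library, with lines at group means. Gjb2, Gjb6, Gjb5 and Gja1 are set against the full basal keratinocyte list, which holds Krt14, although Gjb5 belongs to differentiating epidermis. Gja4 per endothelial markers without Pecam1 is lowest in the MAR1 libraries (14.3 or less), and Gjb2 per basal keratinocyte markers is lowest in untreated skin (1.02 or less).

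Deletion of Il4ra in Pdgfra-expressing cells left no connexin of the 6 past the threshold in edgeR, against 18.7% of all genes. At an unadjusted p under 0.05 there was 1, Gjb5, against 35.1% of all genes, and DESeq2 called 1, also Gjb5 (adjusted p = 0.031), against 29.7%. None of the 6 separated the cKO from the fl/fl libraries, against 29.4% of all genes. Gjb5 stood at 32.1, 60.1 and 134 CPM in cKO against 10.1, 39.6 and 32.4 in fl/fl (log2 1.46 ± 0.59, adjusted p = 0.097). The highest value is that of cKO library 3, without which the difference was 0.75 (adjusted p = 0.45), while without cKO library 2 it passed (2.14, adjusted p = 0.042). Without cKO library 1, which held Y-linked transcripts, it stood at 1.83 (adjusted p = 0.052), and the other 5 had adjusted p-values of 0.25 to 0.95.

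Gjb2 stood at 240, 331 and 295 CPM in cKO, inside the wide fl/fl range of 111 to 1415 (-1.15 ± 0.67, adjusted p = 0.24). Gjb6 stood at 107, 167 and 124 CPM (-0.77 ± 0.62, adjusted p = 0.4). Their estimates turned to 0.60 and 1.08 without fl/fl library 3, and to 0.99 and 0.71 with the receptor gene share as a covariate, so their sign was not fixed. Gja1 stood at 167, 255 and 202 CPM (0.67 ± 0.41, adjusted p = 0.26), Gja4 at 26.3, 20.7 and 10.4 CPM (0.23 ± 0.43, adjusted p = 0.74) and Gjc1 at 9.32, 11.6 and 4.95 CPM (0.73 ± 0.43, adjusted p = 0.23). The fl/fl spread of Gjb2 (SD 686 around 639 CPM) was about as large as its mean, so a difference of the size seen was not resolved with 3 libraries a group. Markers of other tissues moved in this contrast, where 18.7% of all genes were called. Of these markers 7 of 12 skeletal muscle, 5 of 5 red blood cell and 4 of 7 B cell markers fell in cKO. Skeletal muscle markers summed to 14207 to 68924 CPM in fl/fl and to 30.5 to 3605 CPM in cKO, and red blood cell markers to 2411 to 16198 and 47.7 to 221 CPM. The part of this content in the values was not tested.

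The MC903-treated control groups can be set beside each other, since they differ in genotype, injection and experiment. None of the 6 passed in fl/fl against isotype in edgeR, against 5.22% of all genes. At an unadjusted p under 0.05 there was 1, Gja1, against 24.3% of all genes, and DESeq2 called Gja1 too (adjusted p = 0.034), against 17.4%. Gja1 was lower in every fl/fl library (-1.22 ± 0.42, adjusted p = 0.096), as was Gjc1 (-0.80 ± 0.43, adjusted p = 0.26), 2 of 6 without overlap against 32.5% of all genes. In the same contrast 4 of 12 skeletal muscle, 5 of 5 red blood cell and 4 of 7 B cell markers rose, with muscle sums of 1708 to 2151 CPM and red blood cell sums of 64.8 to 224 CPM with isotype. Gja1 was lowest, at 44.0 CPM, in fl/fl library 1, which had the highest of these sums (68924 CPM of muscle, 16198 of red blood cell and 2112 of B cell markers), and the part of that content was not tested. Gjb2, Gjb6 and Gjb5 differed by 0.16, -0.17 and 0.01 on the log2 scale, each with an SE of 0.58 to 0.67. Without fl/fl library 3, Gja1 (-1.84, adjusted p = 0.027) and Gjb6 (-2.01, adjusted p = 0.015) were called.

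The MAR1 and cKO effects were compared directly, each taken against its own control, by testing the MAR1 effect subtracted from the cKO effect. Gja1 and Gja4 differed between the experiments. For Gja1 the effects were 0.67 in cKO and -2.05 with MAR1, a difference of 2.72 ± 0.59 (adjusted p = 0.026), and for Gja4 they were 0.23 and -2.43, a difference of 2.67 ± 0.62 (adjusted p = 0.03). These are 2 of 6, against 7.96% of all genes. Gjb6 differed by 1.35 ± 0.88 (adjusted p = 0.32), Gjb2 by 0.68 ± 0.94 (0.67), Gjc1 by 0.33 ± 0.60 (0.75) and Gjb5 by 0.31 ± 0.82 (0.84). Both calls were lost without isotype library 1, 2 or 3, MAR1 library 3 or fl/fl library 2 (adjusted p = 0.0501 to 0.079), without both fl/fl libraries 1 and 2 (0.094 for each) and with the skeletal muscle share as a covariate (0.246 and 0.206), where 0 of all genes passed. The Gja4 call was lost also without cKO library 1 (0.061) and with RLE scaling (0.0501). Without fl/fl library 3, Gjb2 (2.41, adjusted p = 0.028) and Gjb6 (3.18, adjusted p = 0.0035) were called as well.

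**Figure D4:**
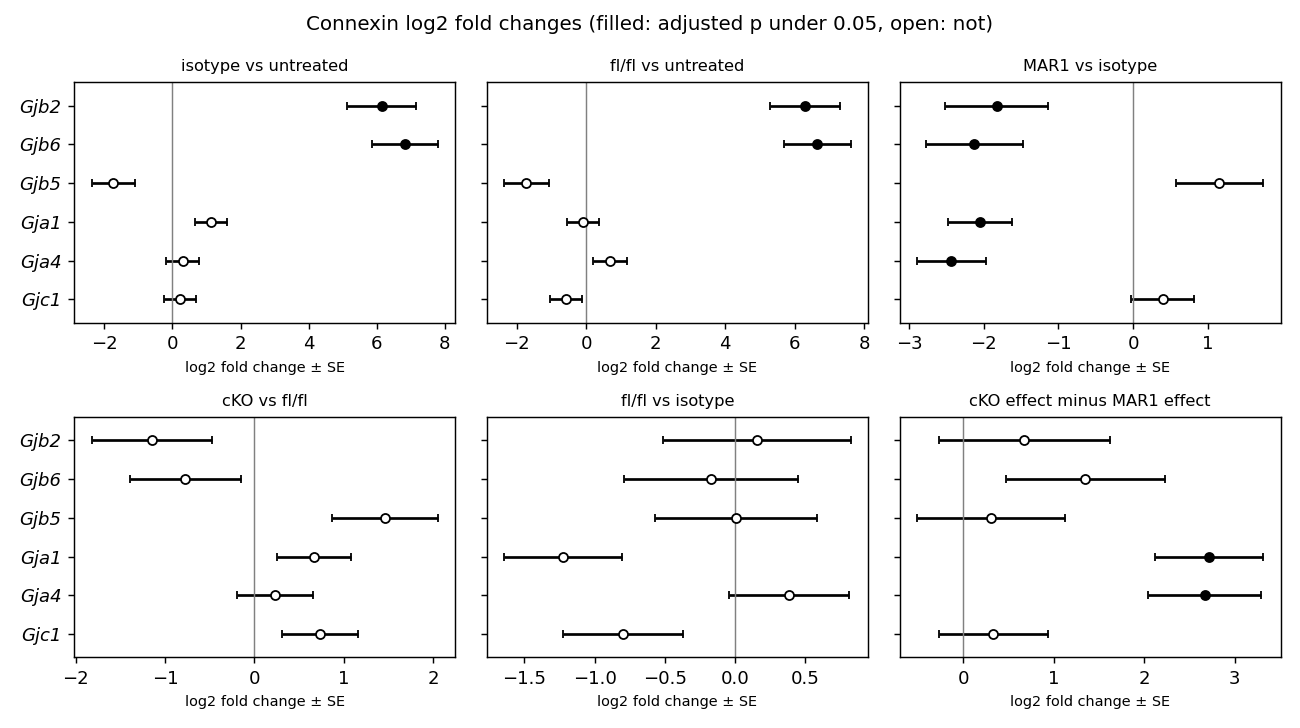
Log2 fold change ± SE of the 6 connexins in the 6 comparisons, filled where the adjusted p is under 0.05; the horizontal scales differ between panels. Gjb2 and Gjb6 lie beyond 6 against untreated skin. In MAR1 against isotype, where 49% of all genes were called, 4 connexins lie below -1.8.

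Ordered by mean CPM, Gjb2 ran from fl/fl (639 ± 686, SD, n = 3) and isotype (574 ± 67.2), which overlapped, through cKO (288 ± 45.9) and MAR1 (162 ± 69.9) to untreated skin (8.14 ± 5.03, n = 2). Gjb6 ran from isotype (256 ± 60.5) and fl/fl (227 ± 251) through cKO (133 ± 30.7), with neighbours overlapping, to MAR1 (58.6 ± 24.0) and untreated skin (2.25 ± 0.33), each apart from the one before. Gjb5 had the reverse end: untreated (90.4 ± 46.5), cKO (75.5 ± 52.8) and MAR1 (60.5 ± 32.6) overlapped. All fl/fl (27.4 ± 15.4) and isotype (27.2 ± 7.52) values lay below those of MAR1 and untreated skin. The lowest cKO value (32.1 CPM) lay within the range of both. Gja1 ran from isotype (306 ± 57.2) to MAR1 (73.7 ± 13.8). Gja4 ran from cKO (19.1 ± 8.07) through overlapping neighbours to untreated (10.1 ± 2.42) and, apart from it, MAR1 (2.28 ± 0.72). Gjc1 spanned the narrowest range, from MAR1 (11.9 ± 0.95) to fl/fl (5.20 ± 2.05).

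The nearest profiles of the other members were other genes, not each other. Gja1 was nearest to the ephrin gene Efnb2 (0.26), then to Tmtc3 (0.36) and the junction adaptor gene Afdn (0.36). Gjc1 was nearest to Cd93 (0.29), Ubxn7 (0.31) and the transporter gene Abcg2 (0.33), Gja4 to Slc25a1 (0.36), Commd4 (0.38) and Mgst1 (0.40), and Gjb5 to Pdzk1ip1 (0.47), Sox21 (0.48) and Asah2 (0.49). Within the 6, the distances other than that of Gjb2 and Gjb6 were 0.94 to 2.79.

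Of the other 14 connexin genes 10 were tested. None of the 10 passed in either comparison with untreated skin in edgeR. There 2 (isotype) and 3 (fl/fl) had an unadjusted p under 0.05, against 18.0% and 18.3% of all genes. In MAR1 against isotype 3 of the 10 fell and 3 rose, where 49% of all genes were called. Among those that fell was Gjb1, at 2.42 to 3.01 CPM with isotype. It had 2, 0 and 1 counts in the MAR1 libraries, too few to size its decrease. The 3 that rose were Gja5, a connexin of arterial endothelium (2.69 ± 0.72), Gjc3, a glial connexin (3.75 ± 0.76), and Gje1 (4.76 ± 1.18). RLE scaling shifts the median log2 fold change of this contrast upward by 0.57, so it could not count against these 3 increases. With the receptor gene share as a covariate 0 of the 20939 genes were called in edgeR.

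Gja5 and Gja4, both connexins of arterial endothelium, thus moved in opposite directions in one contrast. Levels of Gjc3 and Gja5 had the order of the receptor gene share within the MAR1 libraries. Gjc3 stood at 3.80, 3.52 and 3.97 CPM with isotype and at 23.8, 58.2 and 69.7 CPM in MAR1 libraries 1, 2 and 3, in which receptor genes took 3.88%, 7.55% and 9.38% of counts. Gja5 stood at 7.68, 8.33 and 7.54 CPM against 40.3, 49.5 and 62.4 CPM. Its highest fl/fl value was 17.5 CPM, in library 2, at a receptor share of 0.0479%. Gje1 did not have that order, at 3.66, 3.13 and 5.08 CPM per kilobase in MAR1 libraries 1, 2 and 3. In cKO against fl/fl, Gjc3 rose (3.29 ± 0.76, adjusted p = 0.0099), with 8.83, 4.51 and 21.1 CPM against 0.625 to 1.83, at receptor shares of 1.49%, 0.467% and 2.58%. Gje1 had 0 counts in the fl/fl libraries. Its cKO mean of 1.13 CPM was 14.3-fold the mean fl/fl floor of 3 counts per library. The cKO libraries ranged from 0.229 to 1.83 CPM (7.26 to 37.8 counts), so the lowest lay much nearer to that floor. The part of background reads in these increases was not tested.

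**Figure D5:**
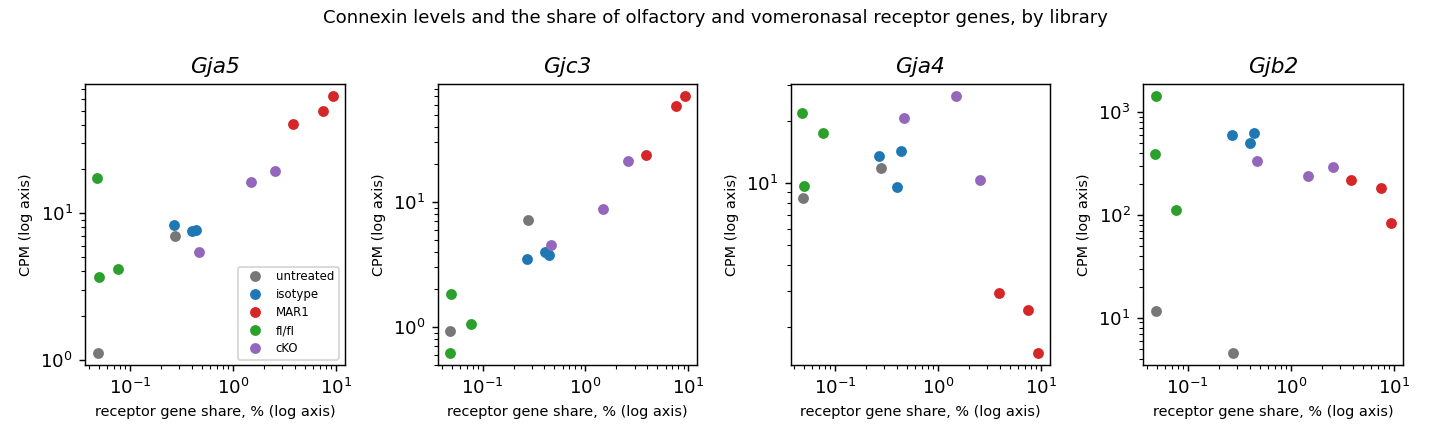
CPM of Gja5, Gjc3, Gja4 and Gjb2 against the share of counts in olfactory and vomeronasal receptor genes, both on log axes, with 1 point per library coloured by group. The MAR1 libraries, at 3.88% or more, are highest for Gja5 and Gjc3 and lowest for Gja4.

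Genes that act on connexins were also followed. Of 10 partners, which bind, phosphorylate or traffic them, 9 fell in MAR1 against isotype, all but Mapk3. In that contrast 49% of all genes were called, and 0 with the receptor gene share as a covariate. Tjp1, the scaffold that binds the Gja1 tail, fell by 1.49 ± 0.41 on the log2 scale (adjusted p = 0.0094), the kinase gene Src fell by 1.85 ± 0.44 (0.0043), and the ubiquitin ligase gene Nedd4, which acts on Gja1, fell by 2.09 ± 0.43 (0.0017). Csnk1d (-1.40), Ccn3 (-1.26), Cnst (-1.79) and Dbn1 (-1.98) fell as well. The median of the list was -1.54, against -1.94 for the 6 connexins and 0 for all genes. In cKO against fl/fl the actin-binding drebrin gene Dbn1 was the only partner that fell (-1.86 ± 0.36, adjusted p = 0.0047), from 17.2 ± 3.72 to 4.71 ± 1.37 CPM (n = 3 each), alongside the muscle and blood markers given above for that contrast. In cKO against fl/fl 18.7% of all genes were called. Cnst passed in the interaction (1.85 ± 0.52, adjusted p = 0.045), where 7.96% of all genes did. Against untreated skin none of the partners passed in edgeR. At an unadjusted p under 0.05 there was 1 in each comparison, against 18.0% (isotype) and 18.3% (fl/fl) of all genes. Panx1 and Panx3, pannexins that form channels without docking, passed in none of the 6 comparisons in edgeR. Panx1 stood at 42.1 ± 3.12 CPM with isotype and 42.9 ± 11.8 with MAR1.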

How the data were processed

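Polyadenylated RNA from mouse neck skin was sequenced in 14 libraries. The authors deposited an estimated count (expected count) per gene symbol, read from its values, which carry decimals and sum to unequal totals. Salmon 1.2.1, DESeq2 1.44.0 and the build GRCm39 are listed, with no role, per the submitters' processing notes. Of 35328 entries, 1 without a gene name (0.0137% to 0.913% of counts) was left out, and counts were rounded. Totals of 5.73 to 55.3 M counts set the precision of each level. The floor of 3 counts per library covers counting error only.

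One fit of 5 group means was made in edgeR 4.0.16 (R 4.3.3, TMM, filterByExpr, robust quasi-likelihood test, two-sided, Benjamini-Hochberg adjusted p under 0.05 over 20939 genes). A p-value covers no more than the spread among these libraries. Several comparisons share the untreated, isotype or fl/fl libraries, so they are not independent. Alternatives were RLE scaling, DESeq2 1.42.0, other filters, fewer groups, a replicate block, receptor gene and skeletal muscle shares as covariates, thinning, summed untreated libraries and libraries left out.

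The 6 genes, the lists and the marker genes were chosen with earlier results of these data known. By rule the text names all 6 members, called genes of the lists (otherwise up to 4 with the highest mean) and the 3 nearest profiles per member (prior count 2). A few list genes go unreported by name but remain in the fits and the list counts. Figures used matplotlib 3.10.9.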

Additional observations from a re-analysis of the deposited data

Results flagged for a closer look

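Gja1 and Gja4 differed between the experiments in the test of the difference itself. The cKO effect exceeded the MAR1 effect by 2.72 on the log2 scale for Gja1 (adjusted p = 0.026, edgeR) and by 2.67 for Gja4 (adjusted p = 0.03). Over 22 alternatives the estimates ran from 2.06 to 3.33 for Gja1, called in 15, and from 2.21 to 3.69 for Gja4, called in 13. Both genes were lower with MAR1 in all 3 libraries than in any isotype library, where groups did not overlap for 68.6% of all genes. Neither separated cKO from fl/fl, against 29.4% of all genes that did. The median difference over all genes was 0.41, and -0.05 with RLE scaling. Without isotype library 1, 2 or 3, 1 gene of the whole table passed. MAR1 treatment and library content cannot be told apart.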

How the results depend on the processing

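The Gjb2 and Gjb6 rises over untreated skin kept their direction in all 15 (isotype) and 16 (fl/fl) alternatives, at 5.93 to 7.35 and 4.83 to 7.79 on the log2 scale (7.79 with fl/fl library 3 alone), and the decreases of Gja1 (-2.17 to -1.33) and Gja4 (-2.65 to -1.87) with MAR1 kept theirs and were called in 14 of 15. Under a receptor gene share covariate no member was called in MAR1 against isotype (0 of 6 by edgeR), as was none of all 20939 genes (0), and Gjb2 turned to 0.0204. The number of members called moved as follows. When only the groups compared were fitted, 20.3% of all genes were called in isotype against untreated skin. For isotype against untreated skin it was 2, with 4 when only the groups compared were fitted and 0 with the untreated libraries summed. For fl/fl against untreated skin it was 2, with 0 when only the groups compared were fitted (0 of 16893 genes) and 0 to 2 over libraries left out. For MAR1 against isotype it was 4 (49% of all genes), with 5 by DESeq2 (56.9%) and 5 when only the groups compared were fitted (67.6%), and 2 to 3 over libraries left out. For cKO against fl/fl it was 0, with 1 by DESeq2 (29.7% of all genes) and 0 to 1 over libraries left out. For fl/fl against isotype it was 0, with 1 by DESeq2 (17.4%) and 0 to 2 over libraries left out. For the interaction it was 2, with 1 under RLE scaling, 0 with a skeletal muscle share covariate (0 of 20939 genes), 0 without both fl/fl libraries that held salivary gland transcripts (7 of 21333 genes), and 0 to 4 over libraries left out. The cause was not tested. Genes called in the whole table ranged over the alternatives from 0 to 12222 in MAR1 against isotype, from 14 to 5994 in cKO against fl/fl, from 50 to 3553 in isotype and 0 to 2124 in fl/fl against untreated skin, from 0 to 3347 in fl/fl against isotype and from 0 to 4863 in the interaction. With RLE scaling the median over all genes shifted on the log2 scale, by 0.57 for MAR1 against isotype, 0.12 for cKO against fl/fl and -0.46 for the interaction, so the Gjc1 value of 0.40 with MAR1 has no fixed size. Of all log2 fold changes recomputed, 515 kept direction and side, 38 lost and 13 gained the threshold, 33 uncalled ones changed sign or moved, and 1 reversed. Where libraries left out leave 1 untreated or 1 fl/fl library, that one is assumed to vary like the other groups. The replicate numbers do not pair the samples: deviations of same-numbered libraries correlated at -0.06, -0.07 and 0.11 between isotype and MAR1 and at 0.20, 0.07 and -0.12 between fl/fl and cKO. With the number as a block, Gjb2 in MAR1 against isotype stood at -1.78 (adjusted p = 0.069), and the members called were 3 there. Depth limits Gja4 most, at 10 to 34 counts in the MAR1 libraries.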
